A study of Homo sapiens with 18 samples.

Results

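Antisense RNAs named for a sense gene were described together with that gene in U937, a human cell line used as a model of immature monocytes. Members were the genes whose symbol ends in -AS and a number and whose symbol before -AS was itself carried by another named probe set. Of 480 such antisense symbols, 315 met this rule and 165 had no named partner. They were 315 of the 14884 named genes on the array, and they paired with 303 sense partners, 11 of which had several antisense RNAs, up to 3. Where a symbol had several probe sets the brightest one stood for it, which concerned 16 antisense RNAs and 11 partners.

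RNA was hybridised to 18 Affymetrix Human Gene 2.0 ST arrays, 3 in each of 6 groups of the same cell line in the same serum-containing medium. In the group of decitabine plus panobinostat, cells received decitabine (5-aza-2´-deoxycytidine) in 3 pulses of 24 h, and panobinostat for 24 h together with the last pulse. In the group of decitabine plus valproic acid, valproic acid took the place of panobinostat. The 3 single-agent groups had decitabine, panobinostat or valproic acid alone, and the last group is labelled as control. The labels carry the numbers 50 for decitabine, 8 for panobinostat and 1 for valproic acid without a unit, and what the control cells received was not stated in the sources used here. No label says whether replicate arrays stem from separate cultures, so p-values measure the spread between these arrays, which may be technical.

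An antisense RNA is transcribed from the strand opposite to a neighbouring or overlapping gene, and many are long noncoding RNAs that start near the promoter of that gene or inside its body. Some are known to act on the partner's transcription or RNA, and many short-lived ones are degraded in the nucleus by the RNA exosome. Decitabine inhibits DNA methyltransferases, so that cytosine methylation at CG dinucleotides is lost as cells divide, and panobinostat and valproic acid inhibit histone deacetylases. In bulk RNA, fewer cells expressing a gene and less RNA per cell cannot be told apart.

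The start regions of the pairs that the results turn on are shown first, each as the 250 bases before and 50 bases after the start, taken from RefSeq on GRCh38.p14 and written 5′ to 3′ on the gene's own strand with every CG in capitals. The windows of PROSER2-AS1 (chr10:11894661-11894960, minus strand), BCAR3-AS1 (chr1:93591718-93592017, plus strand) and CLDN10-AS1 (chr13:95533861-95534160, minus strand) are given because these RNAs were called higher in all 3 groups that received decitabine. They held 17, 4 and 5 CG. LY86-AS1 was called higher in the same groups, and its window, not shown, held 3 CG. No window of AFAP1-AS1 was used here.
PROSER2-AS1: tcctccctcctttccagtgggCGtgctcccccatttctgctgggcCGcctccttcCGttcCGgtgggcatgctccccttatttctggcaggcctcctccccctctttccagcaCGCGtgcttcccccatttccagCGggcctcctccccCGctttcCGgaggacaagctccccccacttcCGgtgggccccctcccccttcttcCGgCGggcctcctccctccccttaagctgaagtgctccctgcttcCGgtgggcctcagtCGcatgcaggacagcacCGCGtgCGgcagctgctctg
BCAR3-AS1: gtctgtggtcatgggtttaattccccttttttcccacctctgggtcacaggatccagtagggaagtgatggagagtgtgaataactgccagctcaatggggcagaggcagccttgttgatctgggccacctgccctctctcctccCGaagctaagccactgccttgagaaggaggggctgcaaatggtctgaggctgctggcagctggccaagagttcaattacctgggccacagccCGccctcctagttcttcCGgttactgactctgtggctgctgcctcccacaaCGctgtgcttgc
CLDN10-AS1: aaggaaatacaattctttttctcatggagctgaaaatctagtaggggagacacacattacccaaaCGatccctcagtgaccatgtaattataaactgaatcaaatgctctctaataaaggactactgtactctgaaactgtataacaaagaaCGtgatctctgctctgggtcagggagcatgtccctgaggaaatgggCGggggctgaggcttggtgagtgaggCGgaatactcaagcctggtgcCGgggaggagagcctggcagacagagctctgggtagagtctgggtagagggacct

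TMEM147-AS1 (chr19:35545980-35546279, minus strand) and TMEM147 (chr19:35545376-35545675, plus strand) are shown as a pair with overlapping starts in which both members fell. URB1-AS1 (chr21:32392883-32393182, plus strand) and URB1 (chr21:32392963-32393262, minus strand) are shown as a pair that starts from 1 stretch of DNA in opposite directions, so that their windows largely hold the same bases on opposite strands. NDFIP2-AS1 (chr13:79481182-79481481, minus strand) and NDFIP2 (chr13:79480905-79481204, plus strand) also start close together, and there only the sense gene was called. The windows held 16 CG for TMEM147-AS1, 38 for TMEM147, 28 each for URB1-AS1 and URB1, 46 for NDFIP2-AS1 and 24 for NDFIP2.
TMEM147-AS1: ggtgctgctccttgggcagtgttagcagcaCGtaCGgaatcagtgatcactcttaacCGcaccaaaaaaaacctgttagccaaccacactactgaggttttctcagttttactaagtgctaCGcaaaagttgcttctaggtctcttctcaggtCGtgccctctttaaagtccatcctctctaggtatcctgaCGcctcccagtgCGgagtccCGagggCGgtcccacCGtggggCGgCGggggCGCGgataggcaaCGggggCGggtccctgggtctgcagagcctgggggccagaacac
TMEM147: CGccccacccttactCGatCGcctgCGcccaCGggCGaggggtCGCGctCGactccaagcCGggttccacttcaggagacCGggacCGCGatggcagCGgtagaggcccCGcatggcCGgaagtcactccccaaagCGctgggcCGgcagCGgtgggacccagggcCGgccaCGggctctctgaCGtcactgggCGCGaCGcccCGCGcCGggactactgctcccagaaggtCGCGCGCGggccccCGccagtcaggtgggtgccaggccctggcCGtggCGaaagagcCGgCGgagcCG
URB1-AS1: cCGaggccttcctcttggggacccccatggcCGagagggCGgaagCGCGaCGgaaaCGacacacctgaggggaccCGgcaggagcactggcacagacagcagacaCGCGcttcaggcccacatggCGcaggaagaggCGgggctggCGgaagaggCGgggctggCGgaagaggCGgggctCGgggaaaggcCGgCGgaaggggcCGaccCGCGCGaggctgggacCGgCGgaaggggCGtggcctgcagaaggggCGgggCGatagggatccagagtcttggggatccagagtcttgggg
URB1: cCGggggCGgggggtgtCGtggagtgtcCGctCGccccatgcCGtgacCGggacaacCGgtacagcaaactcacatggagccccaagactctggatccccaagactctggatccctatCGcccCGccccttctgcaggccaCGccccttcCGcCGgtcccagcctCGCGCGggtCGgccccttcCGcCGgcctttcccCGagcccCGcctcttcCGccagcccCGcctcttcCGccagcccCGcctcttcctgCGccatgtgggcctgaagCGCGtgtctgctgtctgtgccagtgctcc
NDFIP2-AS1: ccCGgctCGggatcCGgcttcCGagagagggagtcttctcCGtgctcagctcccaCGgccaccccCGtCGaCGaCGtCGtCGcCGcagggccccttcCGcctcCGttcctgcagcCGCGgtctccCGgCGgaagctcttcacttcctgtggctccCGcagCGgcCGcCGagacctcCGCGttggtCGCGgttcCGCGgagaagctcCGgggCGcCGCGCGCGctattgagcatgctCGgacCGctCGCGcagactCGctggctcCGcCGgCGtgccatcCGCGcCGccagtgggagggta
NDFIP2: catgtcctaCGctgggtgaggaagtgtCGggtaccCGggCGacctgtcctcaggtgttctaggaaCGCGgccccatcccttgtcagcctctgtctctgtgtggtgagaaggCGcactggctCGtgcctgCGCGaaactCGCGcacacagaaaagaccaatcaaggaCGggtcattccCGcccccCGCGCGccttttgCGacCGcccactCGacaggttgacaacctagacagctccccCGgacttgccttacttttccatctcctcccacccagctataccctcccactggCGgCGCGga

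Windows were found for 245 of the 315 antisense RNAs and 251 of the 303 partners. The median count of CG in a window was 15 for antisense RNAs and 25 for partners, against 14 for all 27305 genes of the RefSeq promoter table. The letters GGGCGG, read on both strands and holding 1 CG themselves, were in 42.9% of antisense windows and 62.2% of partner windows, against 44.6% of all windows. CCAAT was in 34.3% of antisense windows, 32.7% of partner windows and 35.7% of all windows, and TATAAA in 9.80%, 8.37% and 12%, both read on either strand and neither holding a CG. For the 21 antisense RNAs called higher in a treatment with decitabine, 15 had a window, with a median of 15 CG. For the 21 called lower in any treatment, 18 had a window, with a median of 23 CG.

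The values are deposited log2 signals. They ran between 2.29 and 14.57 over the whole table, with array medians between 3.81 and 3.87, and over named genes replicate arrays correlated between 0.985 and 0.992, against 0.961 to 0.990 for pairs from different groups. Of 12 monocytic markers, 7 were on named probe sets, at 4.34 to 12.28 in control cells, led by MPO at 12.28, LYN at 10.80 and CD4 at 9.74. CSF1R, the receptor of the macrophage growth factor, was the lowest at 4.34. Of 15 markers of T, B, red, epithelial and stromal cells, 4 were on named probe sets, at 3.39 to 4.59. No label or header names a batch.

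Most antisense RNAs gave a signal near the low end of the array. The mean level over all arrays had a median of 3.67 for the 315 antisense RNAs, 4.82 for the 303 partners and 4.64 for all named genes, as levels of single probe sets that cannot be set against each other gene by gene. A mean level of at least 4 was reached by 103 antisense RNAs and 186 partners, and by both members in 84 pairs. In 110 pairs only the partner reached it, in 19 only the antisense RNA, and in 102 neither.

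A gene is said to be called, and to have risen or fallen, at a limma adjusted p under 0.05 with the adjustment over all named genes. Decitabine plus panobinostat called 37 antisense RNAs, or 11.7% against 23.2% of all named genes, with 21 higher (against 11.2% of all) and 16 lower (against 12%). With decitabine plus valproic acid 26 were called, or 8.25% against 17%, with 12 higher (against 8.9% of all) and 14 lower (against 8.06%). With decitabine alone 9 were called, or 2.86% against 3.96%, with 5 higher (against 2.57% of all) and 4 lower (against 1.39%). With panobinostat alone 8 were called, or 2.54% against 7.39%, with 5 higher (against 3.92% of all) and 3 lower (against 3.47%). With valproic acid alone 6 were called, or 1.90% against 7.47%, with 4 higher (against 4.73% of all) and 2 lower (against 2.74%). The median log2 change of the 315 lay between -0.05 and 0.02 in the 5 treatments. Counts of a few members moved by more than 1.5 times when 1 array was left out. Decitabine alone gave 4 without control replicate 1 and 5 without control replicate 2, and decitabine plus valproic acid gave 17 without control replicate 3 and 14 without its own replicate 3. Panobinostat gave 5 without control replicate 1, 3 when control replicate 3 was left out and 4 when its own replicate 2 was. Valproic acid gave 3 without control replicate 1 and again 3 when control replicate 3 was left out, and 2 when its own replicate 1 was.

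Sense partners were called in shares close to those of all named genes. Decitabine plus panobinostat called 73 of 303, 36 higher and 37 lower, and decitabine plus valproic acid 48, 28 higher and 20 lower. Decitabine called 10, 5 in each direction, panobinostat 21, 10 higher and 11 lower, and valproic acid 23, 16 higher and 7 lower. The shares were 24.1%, 15.8%, 3.30%, 6.93% and 7.59% of partners. For panobinostat the count was 13, 13 or 11 without the control replicates 1, 2 or 3 in turn, and 13 without its own replicate 3. For valproic acid it was 10, 11 or 12 without the control replicates 1, 2 or 3 in turn, 10 without its own replicate 1 and 13 without its own replicate 3.

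**Figure D1:**
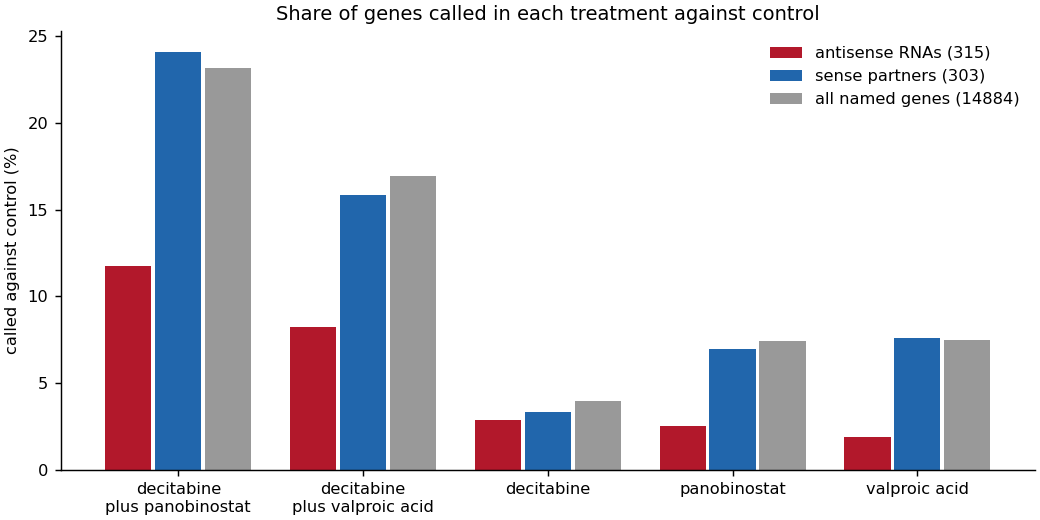
Bars give the share, in percent, of 315 antisense RNAs (red), 303 sense partners (blue) and all 14884 named genes (grey) called at a limma adjusted p under 0.05 in each treatment against control. The antisense bar is the lowest of the 3 in every treatment, at 11.7% with decitabine plus panobinostat, where partners are at 24.1% and all genes at 23.2%.

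Level and calls moved together, where level is the mean over all 18 arrays, treated ones included. A rise could thus carry an RNA past 4. AFAP1-AS1, for example, read 3.87, 3.74 and 3.56 in control cells and had a mean level of 5.83. The shares below are therefore partly set by the changes themselves. Among the 103 antisense RNAs with a mean level of at least 4, the calls numbered 26 with decitabine plus panobinostat, 19 with decitabine plus valproic acid, 9 with decitabine, 8 with panobinostat and 6 with valproic acid. These are 25.2%, 18.4%, 8.74%, 7.77% and 5.83% of them, against 35.2%, 25.8%, 6.27%, 12.1% and 12.1% of all named genes at that level. Among the 212 antisense RNAs below it, the combination with panobinostat called 11 (5.19%, against 5.48% of all named genes below that level) and the combination with valproic acid 7 (3.30% against 3.87%). Each single agent called 0 of them, against 0.565% of such genes with decitabine, 0.498% with panobinostat and 0.681% with valproic acid. The part of level in these shares was not tested further.

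AFAP1-AS1, a noncoding RNA whose partner AFAP1 encodes an actin filament associated protein, had the largest change of any antisense RNA here. It read 8.56, 8.59 and 8.53 with decitabine plus panobinostat, then 8.17, 8.24 and 8.02 with decitabine plus valproic acid, 7.53, 7.00 and 7.34 with decitabine, 3.96, 3.54 and 3.60 with panobinostat and 3.44, 3.71 and 3.49 with valproic acid, against 3.87, 3.74 and 3.56 in control cells. Every array with decitabine lay above every array without it, and the arrays with an inhibitor alone overlapped those of control. The rise was 28.6-fold (log2 4.84 ± 0.14 SE, limma adjusted p = 4.3e-12) with decitabine plus panobinostat, 21.4-fold (4.42 ± 0.14, 1.79e-11) with decitabine plus valproic acid and 11.9-fold (3.57 ± 0.14, 5.07e-10) with decitabine. AFAP1 stayed between 3.32 and 4.07 over the 18 arrays, near the low end of the scale. Its change of 0.39 ± 0.14 with decitabine plus panobinostat was called at an adjusted p of 0.0492, which was 0.0668 to 0.178 without any of the 3 control arrays or without replicate 1 or 2 of that combination. The AFAP1-AS1 span (4:7754090-7778928, GRCh38.p14) overlaps that of AFAP1.

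PROSER2-AS1, which runs into the end of its protein-coding partner PROSER2, behaved in the same way. It read 7.90, 8.12 and 8.01 with decitabine plus panobinostat, then 7.15, 7.55 and 8.06 with decitabine plus valproic acid, 6.99, 7.32 and 7.43 with decitabine, 3.44, 3.21 and 3.66 with panobinostat and 3.40, 3.39 and 3.68 with valproic acid, against 3.83, 3.46 and 3.71 in control cells. Here too the arrays with decitabine did not overlap the others. The rise was 20.4-fold (4.35 ± 0.19 SE, limma adjusted p = 4.44e-10) with decitabine plus panobinostat, 15.2-fold (3.93 ± 0.19, 1.42e-09) with decitabine plus valproic acid and 12-fold (3.58 ± 0.19, 8.36e-09) with decitabine. PROSER2 lay between 4.32 and 5.34 over all arrays and was called in no treatment.

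BCAR3-AS1 lies inside BCAR3, the gene of an adaptor protein first described in antiestrogen-resistant breast cancer cells. Its signal was 6.87, 7.74 and 7.53 with decitabine plus panobinostat, then 5.54, 6.76 and 6.79 with decitabine plus valproic acid, 5.80, 5.54 and 6.06 with decitabine, 4.14, 4.31 and 4.04 with panobinostat and 3.60, 4.22 and 3.80 with valproic acid, against 3.75, 3.79 and 4.28 in control cells. Again no array with decitabine overlapped one without. The rise was 10.9-fold (3.44 ± 0.30 SE, limma adjusted p = 4.93e-07) with decitabine plus panobinostat, 5.37-fold (2.43 ± 0.30, 4.12e-05) with decitabine plus valproic acid and 3.64-fold (1.86 ± 0.30, 0.00135) with decitabine. BCAR3 lay between 3.43 and 4.54, also near the low end, and was called in no treatment.

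For these 3 pairs the difference between the antisense change and the partner change was itself called. In the combination with panobinostat it was 4.45 ± 0.18 for AFAP1-AS1, 4.24 ± 0.25 for PROSER2-AS1 and 3.00 ± 0.33 for BCAR3-AS1 on the log2 scale (SE; limma adjusted p = 9.45e-11, 8.21e-09 and 7.26e-06). With decitabine alone it was 3.52 ± 0.18, 3.91 ± 0.25 and 2.01 ± 0.33 (adjusted p = 4.37e-09, 5.41e-08 and 0.00177). The calls of the 3 antisense RNAs in the 3 decitabine groups held under every alternative tried, each array left out in turn included.

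CLDN10-AS1 and CLDN10, the gene of a tight junction claudin, were high together. CLDN10-AS1 read 6.04, 6.40 and 5.82 with decitabine plus panobinostat, then 5.09, 5.19 and 5.59 with decitabine plus valproic acid, 4.39, 4.30 and 4.43 with decitabine, 3.72, 3.71 and 3.70 with panobinostat and 3.84, 3.68 and 3.74 with valproic acid, against 3.50, 3.66 and 3.81 in control cells. CLDN10 read 6.08, 6.11 and 6.48 with decitabine plus panobinostat, then 6.03, 5.69 and 6.89 with decitabine plus valproic acid, 4.82, 3.85 and 4.13 with decitabine, 3.65, 3.79 and 3.55 with panobinostat and 3.85, 3.53 and 3.72 with valproic acid, against 3.63, 3.47 and 3.45 in control cells. Both combinations lay clear of control for both genes. CLDN10-AS1 rose 5.40-fold (2.43 ± 0.15 SE, limma adjusted p = 8.61e-09) and CLDN10 6.52-fold (2.71 ± 0.26, 1.53e-06) with decitabine plus panobinostat. With decitabine plus valproic acid they rose 3.11-fold (1.64 ± 0.15, 1.3e-06) and 6.45-fold (2.69 ± 0.26, 2.89e-06), and that difference of -1.05 ± 0.25 was called (adjusted p = 0.00834). With decitabine alone CLDN10-AS1 was called (0.72 ± 0.15, adjusted p = 0.00879, and 0.0511 without control replicate 1), while CLDN10 had a change of 0.75 ± 0.26 (adjusted p = 0.133). CLDN10-AS1 lies inside CLDN10, with starts 100155 bases apart, so that part of either signal could come from RNA of the other gene.

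**Figure D2:**
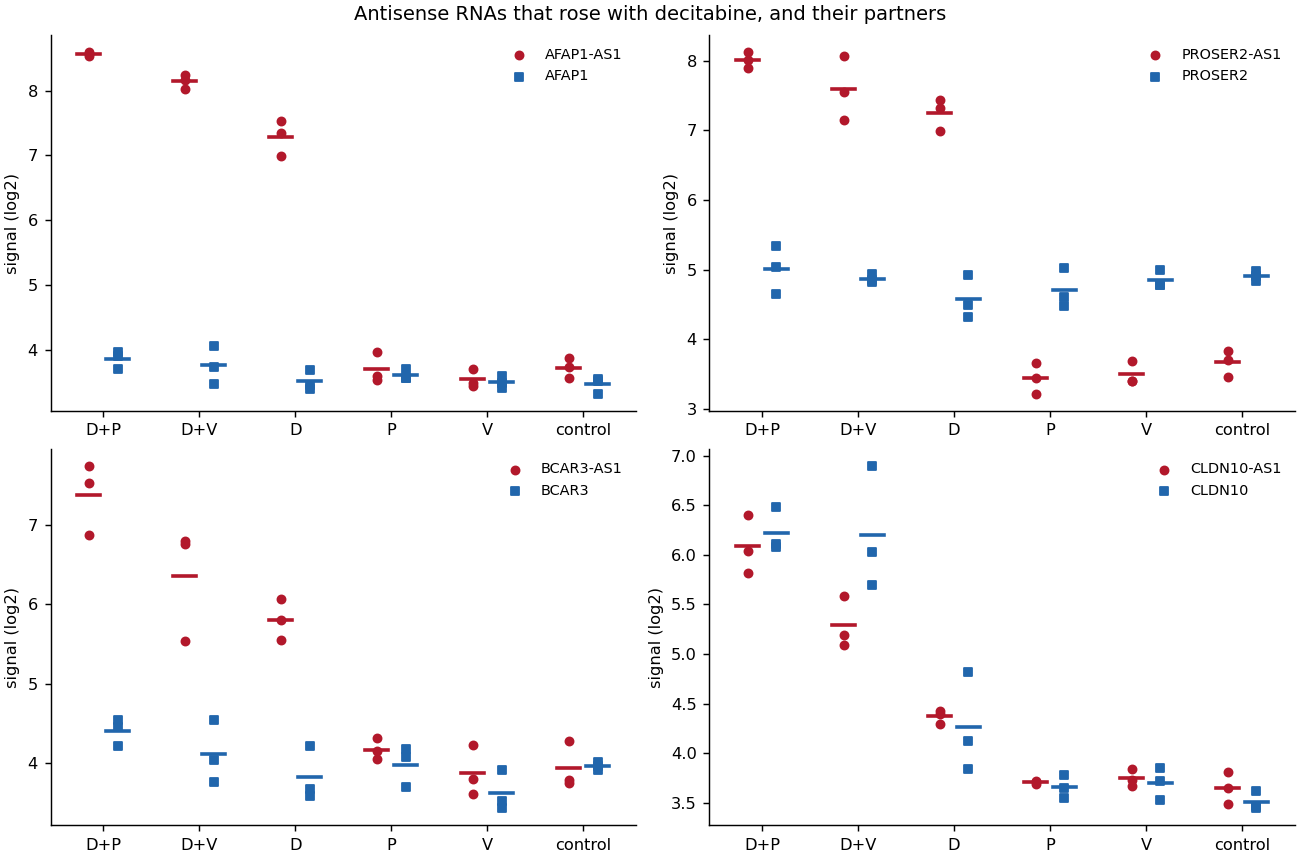
Each panel plots the log2 signal of an antisense RNA (red circles) and its partner (blue squares) in every array, with a line at each group mean of 3 arrays, for decitabine plus panobinostat (D+P), decitabine plus valproic acid (D+V), decitabine (D), panobinostat (P), valproic acid (V) and control. AFAP1-AS1, PROSER2-AS1 and BCAR3-AS1 are high in the 3 groups with decitabine while their partners are not, and CLDN10-AS1 and CLDN10 are high together. AFAP1 and BCAR3 have mean levels of 3.62 and 3.98, near the low end of the scale, and whether they were detected was not tested. The 2 colours come from different probe sets, so their levels are not to be set against each other.

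LY86-AS1 also rose with decitabine. It read 4.76, 5.23 and 5.41 with decitabine plus panobinostat, then 4.58, 4.85 and 5.42 with decitabine plus valproic acid, 4.42, 4.16 and 4.21 with decitabine, 3.68, 3.45 and 3.72 with panobinostat and 3.31, 3.59 and 3.79 with valproic acid, against 3.50, 3.63 and 3.36 in control cells. All arrays with decitabine lay above the rest. The rise was 3.12-fold (1.64 ± 0.20 SE, limma adjusted p = 1.85e-05) and 2.74-fold (1.46 ± 0.20, 0.000109) in the combinations with panobinostat and valproic acid. With decitabine alone it was 1.70-fold (0.77 ± 0.20, adjusted p = 0.0417), and without any 1 of the 6 arrays compared that adjusted p was 0.0697 to 0.15. LY86, which encodes the secreted MD-1 protein that pairs with the receptor CD180, went the other way with decitabine plus panobinostat, as given with the opposed pairs.

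Other large antisense changes, chosen for their size after their values were seen, were TMEM51-AS1 at 1.71, ALOX12-AS1 at 1.29, PAX8-AS1 at 1.07 and LHX4-AS1 at -1.25 with decitabine plus panobinostat, as log2 changes that were all called. With them, 12 antisense RNAs were called at 2-fold or more in that combination, or 3.81%, against 7.69% of all named genes. The count was 9 with decitabine plus valproic acid (2.86% against 4.8%), 3 with decitabine (0.952% against 1.42%), 3 with panobinostat (0.952% against 2.1%) and 2 with valproic acid (0.635% against 1.94%).

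EPB41L4A-AS1, a noncoding host of a small nucleolar RNA, fell furthest. It read 6.96, 7.03 and 6.48 with decitabine plus panobinostat, then 7.94, 7.67 and 6.68 with decitabine plus valproic acid, 8.88, 8.40 and 8.31 with decitabine, 8.09, 7.65 and 7.59 with panobinostat and 8.11, 8.25 and 7.50 with valproic acid, against 8.77, 8.79 and 9.32 in control cells. All groups with an inhibitor lay below control, and decitabine alone overlapped it. The signal fell to 0.227 of control (-2.14 ± 0.29 SE, limma adjusted p = 4.97e-05) with decitabine plus panobinostat and to 0.346 (-1.53 ± 0.29, 0.00158) with decitabine plus valproic acid. With panobinostat the change was -1.19 ± 0.29 (adjusted p = 0.0186) and with valproic acid -1.01 ± 0.29 (0.0452). Those single-agent calls were less firm: the panobinostat one had an adjusted p of 0.0646 to 0.0976 without control replicate 3 or panobinostat replicate 2 or 3, and the valproic acid one 0.074 to 0.182 without any control array or without valproic acid replicate 1 or 3. EPB41L4A, a protein of the band 4.1 family, stayed between 3.10 and 3.47, near the low end of the scale, and was called in no treatment.

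MCM3AP-AS1 showed a like order of groups. It read 5.51, 5.74 and 5.41 with decitabine plus panobinostat, then 6.72, 6.14 and 5.75 with decitabine plus valproic acid, 6.61, 7.38 and 7.06 with decitabine, 6.14, 6.32 and 5.57 with panobinostat and 6.23, 6.91 and 6.47 with valproic acid, against 7.13, 7.30 and 7.43 in control cells. Only decitabine alone overlapped control. It fell to 0.300 of control (-1.74 ± 0.25 SE, limma adjusted p = 9.56e-05) with decitabine plus panobinostat, to 0.471 (-1.09 ± 0.25, 0.00689) with decitabine plus valproic acid and to 0.412 (-1.28 ± 0.25, 0.00504) with panobinostat. With valproic acid the change was -0.75 ± 0.25 (adjusted p = 0.0905). MCM3AP, which encodes a protein of nuclear mRNA export, lay between 6.43 and 7.12 and was called in no treatment.

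LPP-AS2 was the antisense RNA with the largest rise under panobinostat alone. It read 6.71, 6.64 and 6.98 with decitabine plus panobinostat, then 6.25, 6.25 and 6.09 with decitabine plus valproic acid, 5.83, 5.93 and 5.76 with decitabine, 7.31, 7.36 and 7.16 with panobinostat and 6.94, 6.66 and 6.66 with valproic acid, against 5.85, 6.05 and 5.83 in control cells. Every panobinostat array exceeded every array of the other groups. It rose 2.58-fold (1.37 ± 0.12 SE, limma adjusted p = 2.51e-06) with panobinostat, 1.82-fold (0.86 ± 0.12, 4.75e-05) with decitabine plus panobinostat and 1.80-fold (0.84 ± 0.12, 0.000375) with valproic acid. LPP, a focal adhesion protein whose start lies 1067 bases away with overlapping spans, ranged between 4.20 and 5.74 and was called in no treatment. The difference of the changes was called with panobinostat, at 1.48 ± 0.375 (adjusted p = 0.0233). TAPT1-AS1 was also higher with panobinostat alone, at 6.80, 6.55 and 6.77, against 5.90, 6.10 and 5.68 in control cells, and these groups did not overlap. It rose 1.76-fold (0.81 ± 0.21 SE, limma adjusted p = 0.025), with an adjusted p of 0.0641 to 0.115 without control replicate 1 or 3 or panobinostat replicate 1 or 3, and it was called in no other treatment. TAPT1, a protein-coding gene of a transmembrane protein, had a change of 0.02 ± 0.13 with panobinostat (adjusted p = 0.975).

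TMEM147-AS1 and TMEM147, which encodes a membrane protein of the endoplasmic reticulum, have starts 403 bases apart and were low together. TMEM147-AS1 read 6.11, 6.48 and 5.68 with decitabine plus panobinostat, then 6.41, 6.09 and 5.53 with decitabine plus valproic acid, 6.48, 6.15 and 5.89 with decitabine, 6.78, 6.82 and 6.64 with panobinostat and 6.32, 6.91 and 6.59 with valproic acid, against 7.00, 7.31 and 6.97 in control cells. TMEM147 read 9.20, 9.06 and 9.16 with decitabine plus panobinostat, then 9.52, 9.55 and 9.33 with decitabine plus valproic acid, 9.59, 9.41 and 9.71 with decitabine, 9.63, 9.60 and 9.42 with panobinostat and 9.76, 9.71 and 9.72 with valproic acid, against 9.94, 9.97 and 9.91 in control cells. For both genes every treated array lay below every control array. The antisense RNA fell by 1.00 ± 0.23 (SE, limma adjusted p = 0.00438) and TMEM147 by 0.80 ± 0.10 (2.37e-05) on the log2 scale with decitabine plus panobinostat. With decitabine plus valproic acid they fell by 1.08 ± 0.23 (0.00385) and 0.47 ± 0.10 (0.00358), and the changes of the members were not called different in any treatment. TMEM147-AS1 with decitabine (-0.92 ± 0.23, adjusted p = 0.0344) had an adjusted p of 0.0621 to 0.144 without any control array or without decitabine replicate 2 or 3. TMEM147 with panobinostat (-0.39 ± 0.10, 0.025) had one of 0.0627 to 0.117 without any control array or without panobinostat replicate 3.

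TSPOAP1-AS1 and TSPOAP1, which encodes a binding partner of the mitochondrial translocator protein, were both below control. TSPOAP1-AS1 read 4.90, 4.79 and 4.74 with decitabine plus panobinostat, then 4.97, 4.58 and 4.11 with decitabine plus valproic acid, 5.25, 5.28 and 5.16 with decitabine, 5.20, 5.02 and 4.95 with panobinostat and 4.07, 4.63 and 4.60 with valproic acid, against 5.10, 5.87 and 5.44 in control cells. TSPOAP1 read 4.33, 4.49 and 4.29 with decitabine plus panobinostat, then 5.62, 4.45 and 4.28 with decitabine plus valproic acid, 4.71, 5.11 and 4.39 with decitabine, 5.19, 5.41 and 5.17 with panobinostat and 5.26, 5.08 and 4.98 with valproic acid, against 6.29, 6.55 and 5.87 in control cells. TSPOAP1 lay below control in every treated array, while the antisense RNA overlapped control with decitabine and with panobinostat. TSPOAP1 fell by 1.87 ± 0.27 (SE, limma adjusted p = 9.56e-05) with decitabine plus panobinostat, 1.46 ± 0.27 (0.00144) with decitabine plus valproic acid and 1.50 ± 0.27 (0.00419) with decitabine. Its changes of -0.99 ± 0.27 (0.0362) with panobinostat and -1.13 ± 0.27 (0.0182) with valproic acid were called, but not without control replicate 1 or 2, any panobinostat array, or valproic acid replicate 3 (adjusted p = 0.0585 to 0.144). TSPOAP1-AS1 fell by 1.04 ± 0.21 (0.00639) with valproic acid and by 0.92 ± 0.21 (0.0058) with decitabine plus valproic acid. With decitabine plus panobinostat its change was -0.66 ± 0.21 (0.0301), with an adjusted p of 0.0523 to 0.159 without control replicate 2 or 3 or any array of that combination. The fall of the partner exceeded that of the antisense RNA with decitabine plus panobinostat (difference 1.21 ± 0.24, adjusted p = 0.00159) and with decitabine (1.26 ± 0.24, 0.00627).

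URB1-AS1 and URB1, a ribosome biogenesis gene, start 121 bases apart in opposite directions without overlap, and their order over the groups differed. URB1-AS1 read 5.75, 6.22 and 6.70 with decitabine plus panobinostat, then 5.22, 5.90 and 6.01 with decitabine plus valproic acid, 5.50, 5.49 and 5.95 with decitabine, 6.73, 6.99 and 7.07 with panobinostat and 7.00, 6.98 and 7.44 with valproic acid, against 6.63, 6.38 and 6.62 in control cells. URB1 read 6.93, 6.95 and 7.00 with decitabine plus panobinostat, then 7.57, 7.27 and 7.00 with decitabine plus valproic acid, 7.83, 8.01 and 7.99 with decitabine, 7.62, 8.01 and 7.65 with panobinostat and 7.29, 7.82 and 7.94 with valproic acid, against 8.32, 8.40 and 8.64 in control cells. URB1 lay below control in every treated array, whereas URB1-AS1 lay above it in both single-inhibitor groups and below it in the decitabine and decitabine plus valproic acid groups. URB1 fell by 1.49 ± 0.17 (SE, limma adjusted p = 1e-05) with decitabine plus panobinostat and by 1.17 ± 0.17 (0.000179) with decitabine plus valproic acid. With panobinostat it changed by -0.69 ± 0.17 (0.0186) and with valproic acid by -0.77 ± 0.17 (0.0107), with an adjusted p of 0.0561 to 0.094 without control replicate 3, panobinostat replicate 1 or 3, or valproic acid replicate 1. URB1-AS1 was called lower with decitabine (-0.89 ± 0.23, 0.0429) and with decitabine plus valproic acid (-0.83 ± 0.23, 0.0222). The call with decitabine had an adjusted p of 0.074 to 0.146 without any control array or decitabine replicate 1 or 2, and the other one 0.0711 to 0.102 without control replicate 1 or 3 or replicate 1 of the combination. The changes of the members differed with decitabine plus panobinostat (1.17 ± 0.28, 0.0061), panobinostat (1.08 ± 0.28, 0.028) and valproic acid (1.37 ± 0.28, 0.00779).

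**Figure D3:**
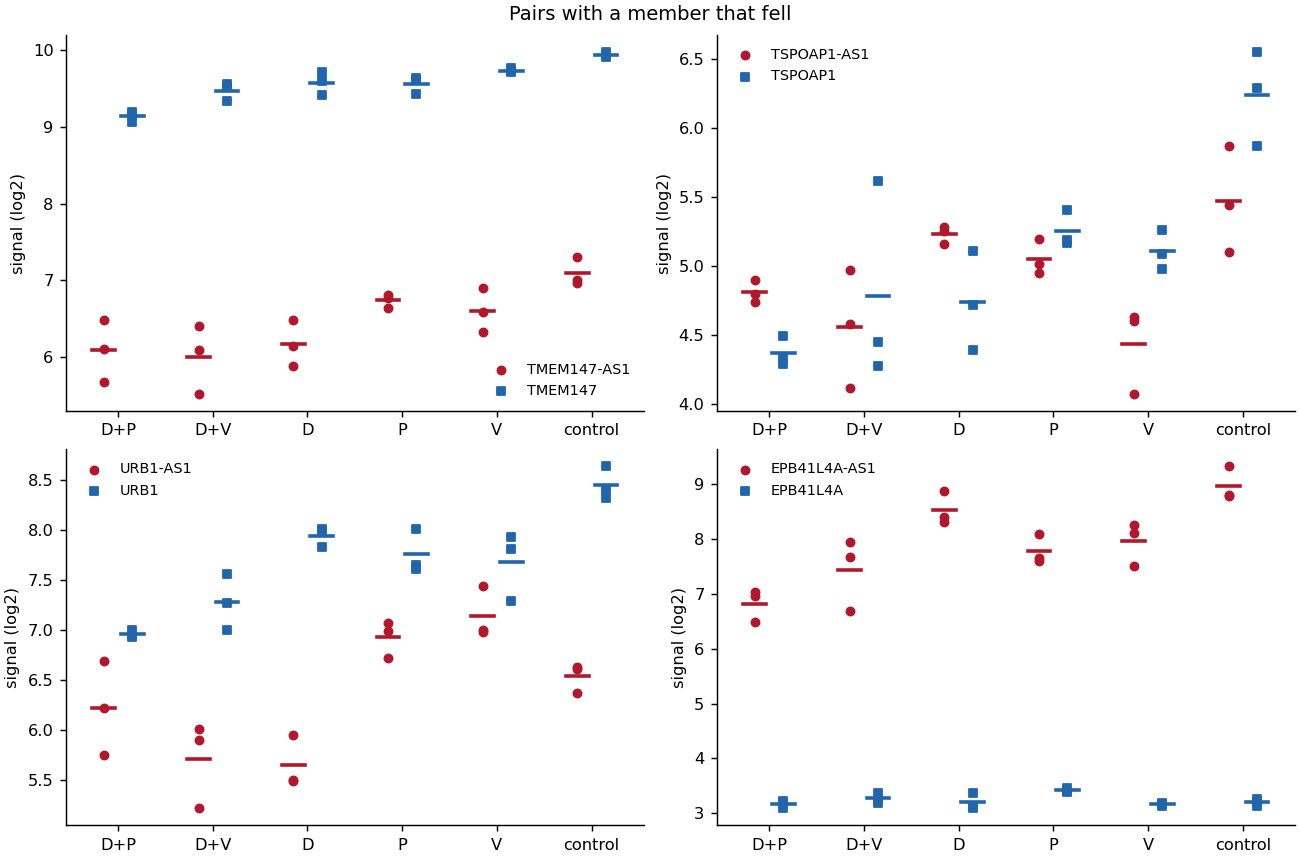
Each panel plots the log2 signal of an antisense RNA (red circles) and its partner (blue squares) in every array, with a line at each group mean of 3 arrays, for decitabine plus panobinostat (D+P), decitabine plus valproic acid (D+V), decitabine (D), panobinostat (P), valproic acid (V) and control. TMEM147-AS1 and TMEM147 are below control in every treated array, URB1-AS1 is above control with a single inhibitor while URB1 is below it, and EPB41L4A-AS1 is low with every inhibitor while EPB41L4A stays between 3.10 and 3.47.

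Opposite calls in 1 treatment were found in 4 of the 14 pairs with both members called with decitabine plus panobinostat. They were found in 2 of 8 such pairs with decitabine plus valproic acid and in 1 of 2 with valproic acid. GAS5 is itself a noncoding RNA, the host of several small nucleolar RNAs, and its span shares 41 bases with that of GAS5-AS1. GAS5-AS1 read 5.06, 5.42 and 5.32 with decitabine plus panobinostat, then 5.19, 4.82 and 5.71 with decitabine plus valproic acid, 4.84, 4.36 and 5.13 with decitabine, 5.25, 4.92 and 5.28 with panobinostat and 5.44, 5.31 and 5.28 with valproic acid, against 4.42, 4.58 and 4.47 in control cells. GAS5 read 8.95, 9.07 and 8.87 with decitabine plus panobinostat, then 9.83, 9.21 and 9.17 with decitabine plus valproic acid, 9.96, 9.92 and 10.09 with decitabine, 9.83, 9.59 and 9.48 with panobinostat and 8.90, 9.58 and 9.33 with valproic acid, against 10.16, 10.29 and 10.43 in control cells. Apart from 1 decitabine array of GAS5-AS1, every treated array lay above control for the antisense RNA, and every one lay below it for GAS5. Decitabine alone was called for neither. GAS5-AS1 rose by 0.78 ± 0.20 (SE, limma adjusted p = 0.0104) on the log2 scale and GAS5 fell by 1.33 ± 0.18 (4.8e-05) with decitabine plus panobinostat. With decitabine plus valproic acid the changes were 0.75 ± 0.20 (0.0183) and -0.89 ± 0.18 (0.00256), and with valproic acid 0.85 ± 0.20 (0.018) and -1.02 ± 0.18 (0.00262). Without control replicate 1 or 3, or 1 array of the treated group (decitabine plus valproic acid replicate 3, valproic acid replicate 1), the antisense call in those 2 groups was lost (adjusted p = 0.0545 to 0.107). The difference between the members was called in the 4 groups with an inhibitor, at 2.11 ± 0.26 (2.42e-05) with decitabine plus panobinostat, 1.64 ± 0.26 (0.00046) with decitabine plus valproic acid, 1.32 ± 0.26 (0.00546) with panobinostat and 1.87 ± 0.26 (0.000432) with valproic acid.

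The other opposed pairs concerned LY86, SH3BP5 and SH3PXD2A. LY86 read 9.41, 9.70 and 9.30 with decitabine plus panobinostat, against 10.18, 10.20 and 9.87 in control cells. It fell by 0.62 ± 0.18 (SE, limma adjusted p = 0.0173), with an adjusted p of 0.0556 to 0.075 without control replicate 1 or 2 or replicate 1 or 3 of that combination, while LY86-AS1 rose as described. SH3BP5, an exchange factor for the small GTPase RAB11, read 7.72, 7.19 and 7.60 with decitabine plus panobinostat, against 5.54, 5.85 and 6.30 in control cells, and SH3BP5-AS1 read 5.39, 5.88 and 5.75, against 6.20, 6.73 and 6.26. The groups of this pair did not overlap. SH3BP5-AS1 fell by 0.73 ± 0.16 (0.00325) and SH3BP5 rose 3.05-fold (1.61 ± 0.22, 5.7e-05). SH3PXD2A, which encodes the podosome scaffold TKS5, read 4.98, 5.04 and 4.61 with decitabine plus panobinostat, against 5.78, 6.35 and 5.82 in control cells, and SH3PXD2A-AS1 read 4.04, 4.17 and 3.41, against 3.30, 3.18 and 3.13. This antisense RNA rose by 0.67 ± 0.17 (0.00672) and SH3PXD2A fell by 1.11 ± 0.25 (0.00316). Both were also called with decitabine plus valproic acid, at 0.54 ± 0.17 (0.0345) and -0.83 ± 0.25 (0.0271), and those calls were lost without 6 of 6 arrays in turn for the antisense RNA (adjusted p = 0.0551 to 0.114) and without control replicate 2 or replicate 2 or 3 of the combination for SH3PXD2A (0.0705 to 0.126).

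**Figure D4:**
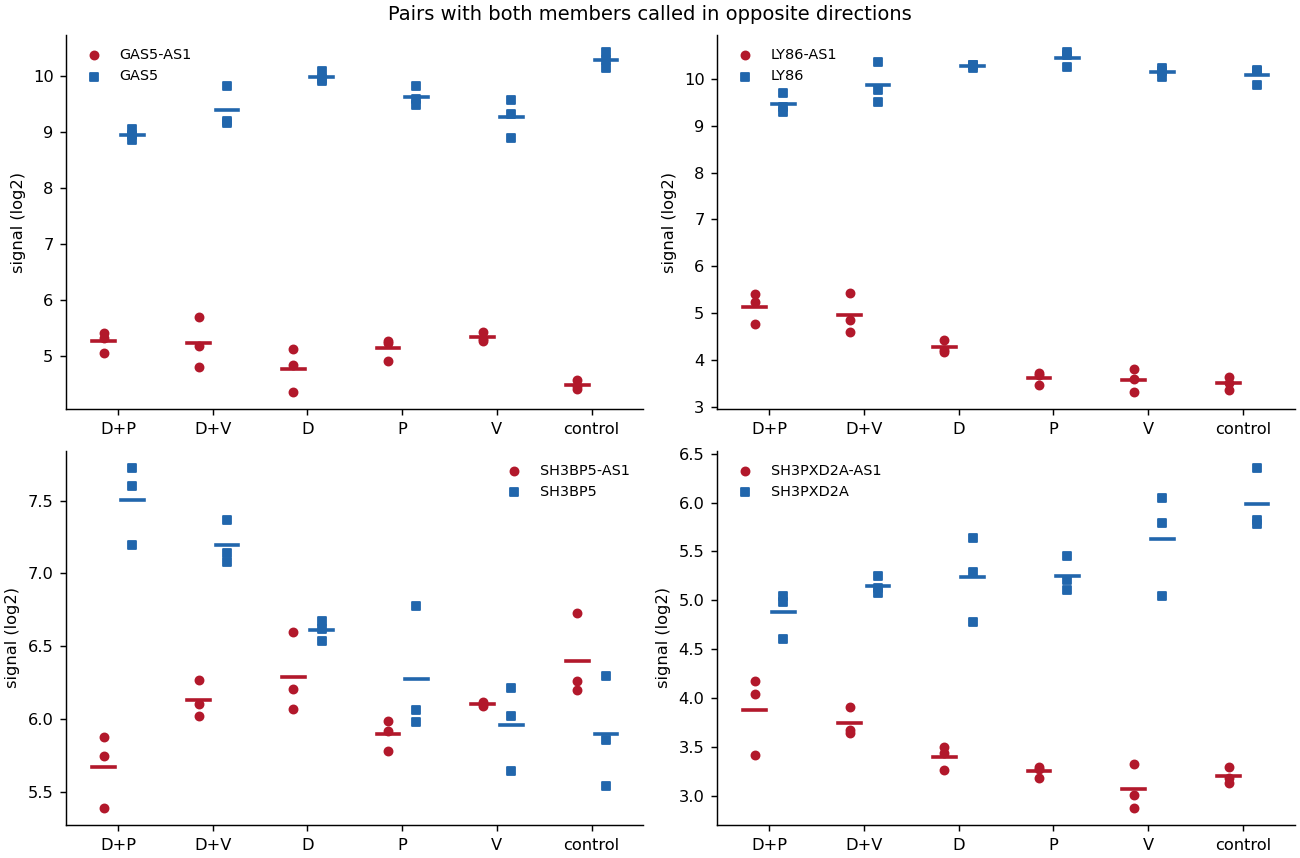
Each panel plots the log2 signal of an antisense RNA (red circles) and its partner (blue squares) in every array, with a line at each group mean of 3 arrays, for decitabine plus panobinostat (D+P), decitabine plus valproic acid (D+V), decitabine (D), panobinostat (P), valproic acid (V) and control. With D+P, GAS5-AS1, LY86-AS1 and SH3PXD2A-AS1 lie above control while their partners lie below it, and SH3BP5-AS1 lies below control while SH3BP5 lies above it.

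Over all 315 pairs, both members were called in the same treatment in 14 pairs with decitabine plus panobinostat, 8 with decitabine plus valproic acid, 0 with decitabine, 1 with panobinostat and 2 with valproic acid. The direction was shared in 10 of the 14, 6 of the 8, the 1 pair with panobinostat (UST-AS1 and UST, chosen here as the single case) and 1 of the 2 pairs with valproic acid. Of the antisense RNAs called with decitabine plus panobinostat 37.8% had a called partner, against 24.4% of all 315 pairs, and of those called with decitabine plus valproic acid 30.8%, against 16.2%. In the 31 pairs named by the rule, 113 calls against control were made, and in 112 of them the treated and control arrays did not overlap. The exception was PHACTR3 with decitabine plus valproic acid. These pairs were named for called changes, so little overlap is built into the choice. Uncalled members such as BCAR3 with decitabine plus panobinostat also lay clear of control, and the share over all named genes was not counted.

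Across pairs, the change of the antisense RNA and that of its partner were only weakly related. Pearson's r over the 315 pairs was 0.167 with decitabine plus panobinostat, 0.137 with decitabine plus valproic acid, 0.024 with decitabine, -0.006 with panobinostat and 0.064 with valproic acid. These are descriptions across genes that share the same arrays and, for 11 partners, the same gene, and genes are not independent replicates.

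**Figure D5:**
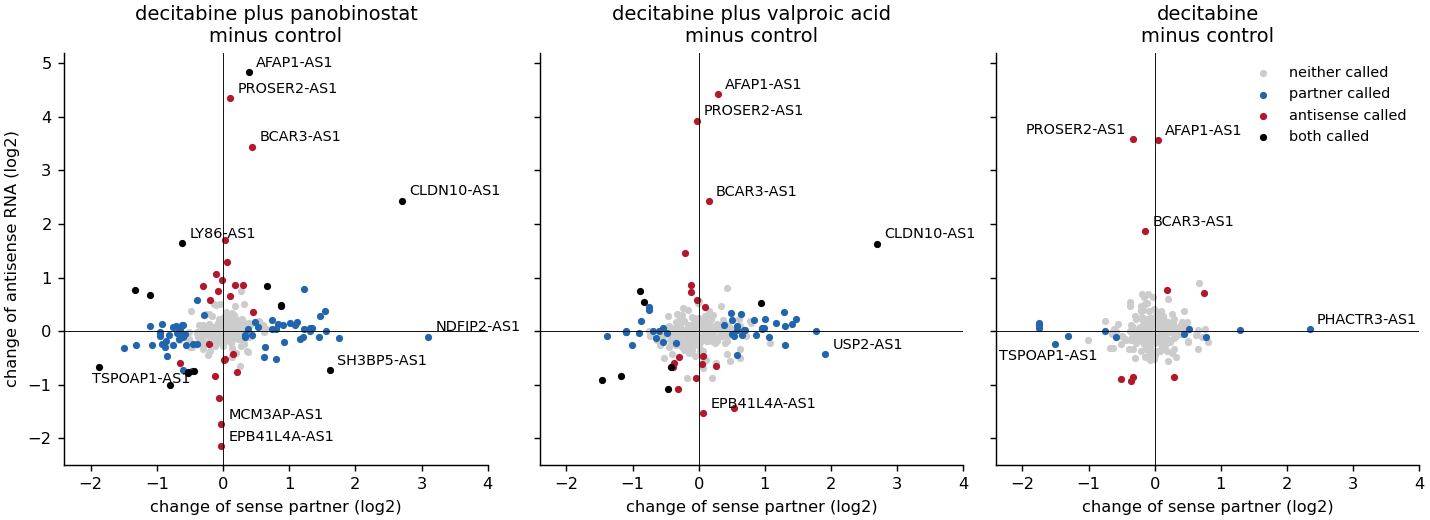
Each point is 1 of 315 pairs, with the log2 change of the sense partner on the x axis and that of the antisense RNA on the y axis, for decitabine plus panobinostat, decitabine plus valproic acid and decitabine against control. Colours give which member was called. AFAP1-AS1, PROSER2-AS1 and BCAR3-AS1 stand far up at a partner change near 0 in the 3 panels, CLDN10-AS1 lies to the upper right in the combinations, and most called pairs lie along 1 axis.

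The difference between the change of the antisense RNA and that of its partner was tested in each pair, with the 315 differences added to the table of all genes. It was called in 61 pairs with decitabine plus panobinostat, against 23% of all rows of that table, 30 with the antisense RNA relatively higher and 31 with it relatively lower. With decitabine plus valproic acid 46 were called (16 higher, 30 lower, against 16.8%), with decitabine 14 (10 and 4, against 3.97%), with panobinostat 20 (10 and 10, against 7.36%) and with valproic acid 15 (9 and 6, against 7.34%). Most of these pairs had 1 called member, and the partner more often than the antisense RNA. With decitabine plus panobinostat the antisense RNA alone was called in 13 of the 61, the partner alone in 36, both in 6 and neither in 6. With panobinostat the count was 13 without panobinostat replicate 3, and with valproic acid it was 7 without control replicate 3 and 8 without valproic acid replicate 1.

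In several pairs the partner moved strongly beside an antisense RNA near the bottom of the scale. NDFIP2, an adaptor of NEDD4-family ubiquitin ligases, read 6.78, 7.52 and 7.19 with decitabine plus panobinostat and 4.89, 6.35 and 6.27 with decitabine plus valproic acid, against 4.32, 3.81 and 4.07 in control cells. It rose 8.55-fold (3.10 ± 0.34 SE, limma adjusted p = 7.91e-06) and 3.41-fold (1.77 ± 0.34, 0.00196). NDFIP2-AS1, whose start lies 76 bases away, stayed between 3.05 and 3.53 in all arrays. The difference of the changes was -3.19 ± 0.38 (1.5e-05) with decitabine plus panobinostat. NDFIP2 was also called with panobinostat (1.41 ± 0.34, 0.0181), with an adjusted p of 0.0595 to 0.0969 without control replicate 2 or 3 or panobinostat replicate 3.

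JAKMIP2, a Janus kinase and microtubule interacting protein, and DPYD, the enzyme that starts the breakdown of uracil and thymine, rose in all 4 groups with an inhibitor. JAKMIP2 read 10.43, 10.87 and 10.57 with decitabine plus panobinostat, then 9.84, 10.14 and 10.12 with decitabine plus valproic acid, 9.02, 9.15 and 9.07 with decitabine, 10.73, 10.57 and 10.89 with panobinostat and 10.81, 10.24 and 10.34 with valproic acid, against 9.33, 9.30 and 8.88 in control cells. The rise with panobinostat was 2.95-fold (1.56 ± 0.17 SE, limma adjusted p = 2.27e-05). DPYD read 7.75, 7.76 and 7.79 with decitabine plus panobinostat, then 7.46, 8.10 and 8.04 with decitabine plus valproic acid, 6.81, 6.50 and 6.59 with decitabine, 7.73, 7.66 and 8.06 with panobinostat and 8.15, 8.08 and 7.82 with valproic acid, against 6.52, 6.15 and 6.68 in control cells. With valproic acid it rose 2.96-fold (1.56 ± 0.18, 5.69e-05). In both genes the 4 inhibitor groups lay clear of control, and decitabine alone overlapped it. JAKMIP2-AS1 stayed between 2.93 and 3.40 and DPYD-AS1 between 3.19 and 4.08, and neither was called in any treatment.

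PHACTR3, a regulator of protein phosphatase and actin, rose most with decitabine. It read 7.40, 7.15 and 7.15 with decitabine, against 5.30, 4.51 and 4.88 in control cells, a rise of 5.06-fold (2.34 ± 0.36 SE, limma adjusted p = 0.000896). With decitabine plus panobinostat it read 6.74, 6.29 and 6.33 (1.56 ± 0.36, 0.00404), and with decitabine plus valproic acid 7.10, 5.16 and 6.82 (1.46 ± 0.36, 0.00904, and 0.0523 without replicate 3 of that combination). The replicate at 5.16 fell among the control values. PHACTR3-AS1 lay between 3.32 and 3.76 and was not called.

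ZNF32, a zinc finger gene with 3 antisense RNAs, was called lower in all 5 treatments. It read 5.12, 5.38 and 5.87 with decitabine plus panobinostat, then 4.87, 5.71 and 5.37 with decitabine plus valproic acid, 4.26, 5.21 and 4.52 with decitabine, 5.20, 4.68 and 5.03 with panobinostat and 5.18, 4.91 and 5.81 with valproic acid, against 6.27, 6.32 and 6.64 in control cells. No treated array reached control. It fell to 0.298 of control with decitabine (-1.75 ± 0.28 SE, limma adjusted p = 0.00149) and to 0.370 with panobinostat (-1.44 ± 0.28, 0.00473). The other calls, at -0.95 ± 0.28 (0.0209), -1.09 ± 0.28 (0.0131) and -1.11 ± 0.28 (0.024) with decitabine plus panobinostat, decitabine plus valproic acid and valproic acid, were less firm. The first was lost without control replicate 3 or replicate 1 or 2 of that combination (adjusted p = 0.0616 to 0.0973), the second without control replicate 3 or replicate 1 of its combination (0.058 and 0.0586), and the one with valproic acid without any control array or valproic acid replicate 1 or 2 (0.0506 to 0.099). ZNF32-AS1, ZNF32-AS2 and ZNF32-AS3 ranged between 3.05 and 4.34 and none was called.

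Further partners called beside an uncalled antisense RNA were HECTD2, a ubiquitin ligase, GPC5, a cell-surface glypican, and USP2, a deubiquitinase. HECTD2 read 4.83, 4.64 and 4.97 with decitabine plus panobinostat, against 3.39, 3.67 and 3.42 in control cells (1.32 ± 0.14 SE, limma adjusted p = 5.45e-06). GPC5 read 4.43, 5.63 and 5.09 with decitabine plus panobinostat, against 3.55, 3.60 and 3.62 in control cells (1.46 ± 0.36, 0.00627). USP2 read 5.33, 6.34 and 5.67 with decitabine plus valproic acid, against 3.86, 3.79 and 3.96 in control cells (1.91 ± 0.24, 4.34e-05). All 3 lay clear of control there. GPC5 was also called with decitabine plus valproic acid, with panobinostat and with valproic acid, where it read 5.38, 4.70 and 5.27. Each of these calls was lost without some single arrays (limma adjusted p = 0.051 to 0.178). HECTD2 was also called with decitabine plus valproic acid. USP2 was also called with decitabine plus panobinostat, decitabine and valproic acid, the last less firmly (0.0719 to 0.216 without some single arrays). USP2 is on more than 1 probe set, and its dimmest one had an adjusted p of 0.888 with decitabine plus valproic acid, so its probe sets disagree.

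Among the smaller pairs called together, RASSF8-AS1 rose by 0.84 ± 0.15 (SE, limma adjusted p = 0.000541) and RASSF8, a Ras association domain gene, by 0.66 ± 0.17 (0.00818) with decitabine plus panobinostat. SRRM2-AS1 fell by 0.78 ± 0.16 (0.0018) and SRRM2, a protein of the splicing speckles whose start lies 38 bases away, by 0.52 ± 0.11 (0.00149), and on the dimmest SRRM2 probe set that adjusted p was 0.143. TMPO-AS1 fell by 0.76 ± 0.15 (0.00164) and TMPO, a lamina-associated protein, by 0.53 ± 0.16 (0.0261), the second with an adjusted p of 0.0572 to 0.101 without control replicate 1 or 3 or any array of the combination. LOXL1-AS1 rose by 0.50 ± 0.17 (0.0386) and LOXL1, an elastin crosslinking enzyme, by 0.87 ± 0.29 (0.0431). The calls of this last pair were lost without control replicate 1, 2 or 3 for 1 or both members and without replicate 1, 2 or 3 of the combination (0.0586 to 0.182), and on the dimmest probe set of LOXL1-AS1 the adjusted p was 0.851.

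NHSL1-AS1 and IQCH-AS1 differed from their partners without both being called in 1 treatment. NHSL1-AS1 read 5.58, 5.87 and 5.11 with valproic acid, against 4.84, 4.43 and 4.53 in control cells, and rose by 0.92 ± 0.22 (SE, limma adjusted p = 0.0173, and 0.064 to 0.0716 without control replicate 2 or 3 or valproic acid replicate 1 or 2). NHSL1, an actin regulator, had a change of -0.43 ± 0.20 there (0.247), and the difference of 1.35 ± 0.215 was called (0.00119). IQCH-AS1 read 3.84, 4.51 and 3.57 with panobinostat, against 4.33, 4.48 and 5.40 in control cells, a change of -0.77 ± 0.29 (0.135) in which the groups overlapped. IQCH, a gene of an IQ motif protein, read 5.40, 5.63 and 5.18, against 4.30, 4.56 and 4.65, and was called higher (0.90 ± 0.25, 0.0351, and 0.0692 to 0.124 without any control array or panobinostat replicate 1 or 2). The difference of -1.67 ± 0.30 was called (0.00241).

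Over the 6 groups, 40 antisense RNAs (12.7%) and 78 partners (25.7%) were called by limma's F test, against 24.8% of all named genes. At least 1 of the 5 treatments called 45 antisense RNAs (14.3%) and 91 partners (30.0%), against 28.7% of all. Both members had a called F test in 14 pairs, only the antisense RNA in 26, only the partner in 69 and neither in 206. In the 14 pairs, the 6 group means of the members correlated above 0 in 9 and below 0 in 5. The highest was CLDN10-AS1 at 0.966 and the lowest GAS5-AS1 at -0.932, each over 6 groups that share their control.

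The position of the pair was read from RefSeq spans and strands on GRCh38.p14. The spans overlapped in 276 pairs and not in 39. Of 218 pairs with both strands given, the antisense gene lay inside the partner in 78, the starts overlapped in 64, the ends in 35, the genes diverged without overlap in 31, the partner lay inside the antisense gene in 8, and 2 converged without overlap. The other 97 were not placed. The labels do not say whether RNA labelling kept the strand, so where spans overlap the signal of an antisense RNA and that of its partner cannot be told apart from the labels alone.

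Pairs with starts within 1000 bases of each other numbered 57. Both members were called with decitabine plus panobinostat in 4 of them (7.02%), all 4 lower, and with decitabine plus valproic acid in 3 (5.26%), again all lower. With decitabine plus panobinostat the antisense RNA was called in 12.3% of these pairs and the partner in 31.6%, and with decitabine plus valproic acid in 7.02% and 17.5%. Single calls in these pairs also ran mostly lower. With decitabine plus panobinostat 2 antisense RNAs were higher and 5 lower, and 4 partners were higher and 14 lower. With decitabine plus valproic acid the counts were 0 and 4 for antisense RNAs and 3 and 7 for partners. Pearson's r between the changes was 0.293 and 0.419 over these 57 pairs. It was 0.227 with decitabine, 0.038 with panobinostat and 0.134 with valproic acid. For a set to read this against, 336 pairs of neighbouring protein-coding genes diverge within 1000 bases. Both members of those were called in 46 pairs (13.7%) with decitabine plus panobinostat, 38 in the same direction. With decitabine plus valproic acid they were called in 16 (4.76%), 14 in the same direction. Single members were called in 34.8% and 31.8% of these pairs in the first combination and in 21.4% and 23.5% in the second. Here r was 0.247 and 0.194, and 0.025, 0.284 and 0.221 with decitabine, panobinostat and valproic acid alone. The 57 include pairs with overlapping starts, whereas the coding pairs diverge without overlap. The 2 kinds of pair were not matched by level and were not tested against each other.

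The interaction asks whether adding panobinostat to decitabine changed a gene by another amount than panobinostat alone did. It was called for 3 antisense RNAs and 4 partners, against 0.625% of all named genes, 0.336% higher and 0.289% lower. AFAP1-AS1 changed by 1.27 on the log2 scale when panobinostat was added to decitabine, against -0.02 with panobinostat alone (interaction 1.29 ± 0.20 SE, limma adjusted p = 0.00611). CLDN10-AS1 changed by 1.71, against 0.05 (1.66 ± 0.21, 0.00158), and CLDN10 by 1.96, against 0.15 (1.81 ± 0.365, 0.0305). TMPO-AS1 changed by -1.29, against 0.04 (-1.32 ± 0.22, 0.00933), after reading 7.39, 7.21 and 7.71 with decitabine alone. ZNF32 changed by 0.79, against -1.44 (2.23 ± 0.40, 0.0149), HECTD2 by 1.19, against 0.16 (1.03 ± 0.20, 0.0269), and LY86 by -0.81, against 0.36 (-1.17 ± 0.25, 0.042). AFAP1-AS1, CLDN10-AS1, CLDN10 and HECTD2 read between 3.39 and 3.96 in control cells and with panobinostat alone, near the low end of the scale. Whether they were detected in those groups was not tested, so their small change with panobinostat alone may not be measurable. The 3 antisense interactions were called under every alternative. ZNF32 missed the threshold without control replicate 3 (adjusted p = 0.0511), CLDN10 without 9 of the 12 arrays in turn (0.0527 to 0.0861), HECTD2 without 8 (0.0523 to 0.0794) and LY86 without 10 (0.0726 to 0.11). The count of 7 was 4 without control replicate 2, decitabine replicate 2 or 3, panobinostat replicate 3 or decitabine plus panobinostat replicate 3, and 3 without control replicate 3. The interaction of decitabine and valproic acid was called for 0 members by limma, against 0.0605% of all genes (0.0134% higher and 0.047% lower), with 21 antisense RNAs and 24 partners at an unadjusted p under 0.05, and for 1 member without decitabine replicate 1.

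Patterns most like those of the 3 antisense RNAs with the highest F were found by Pearson's r of the 6 group means over all named genes. For AFAP1-AS1 they were DAZL, a germ cell RNA-binding protein (0.99953), PRAC1 (0.99835) and PLXNB2, a semaphorin receptor (0.99799). PROSER2-AS1 was nearest to HOXB7, a homeobox gene (0.99899), PRAC1 (0.99883) and PLXNB2 (0.9988). CLDN10-AS1 was nearest to RGPD2 (0.99849), DKK1, a secreted Wnt inhibitor (0.99757), and BCAS1 (0.99471). These are values over 6 points with no test, and a high r did not mean a change of like size. With decitabine plus panobinostat the log2 changes of these like genes ran from 0.49 (HOXB7) to 4.53 (PRAC1). With decitabine they ran from 0.23 (RGPD2) to 3.56 (PRAC1), and HOXB7 changed by 0.42.

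The RNA exosome and its helpers degrade many antisense and promoter-upstream RNAs. They and other genes of nuclear RNA decay, XRN2 among them, were taken as a list of 28 symbols, 21 of them measured. With decitabine plus panobinostat 9 fell and 1 rose, against 12% and 11.2% of all named genes called lower and higher, and the median change was -0.30, against -0.02 for all genes. With decitabine plus valproic acid 8 fell and 0 rose, against 8.06% and 8.9%, with a median of -0.38, against -0.02. Among all named genes with a mean level of at least 4, 35.2% and 25.8% were called in these 2 combinations, in either direction. The 21 genes were not matched to other genes by level. The core subunit EXOSC5 fell by 1.88 ± 0.22 (SE, limma adjusted p = 1.46e-05) and 1.06 ± 0.22 (0.00342) on the log2 scale, and EXOSC2 by 1.03 ± 0.17 (0.000237) and 0.76 ± 0.17 (0.00419), in the combinations with panobinostat and valproic acid. MTREX, the helicase that feeds the nuclear exosome, fell by 0.43 ± 0.10 (0.0034) and 0.45 ± 0.10 (0.00415). SRRT, a partner of the nuclear cap-binding complex, was the 1 that rose (0.47 ± 0.16, 0.0422, decitabine plus panobinostat). Decitabine alone called 0 of the 21, panobinostat 1 (TENT4A, lower) and valproic acid 1 (EXOSC2, lower). Their part in the antisense levels was not tested.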

How the data were processed

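Expression was measured on 18 single-colour arrays. The authors deposited log2 signals per probe set, normalized with RMA per the submitters' processing notes, in a version not given in the sources used here. Of 48226 probe sets, 16098 carried 1 symbol and 32128 none, and the brightest probe set stood for each of 14884 symbols, all matched to RefSeq. No column of another sample was present (0 unused). From these values, limma 3.58.1 in R 4.3.3 fitted 1 mean per group to all genes and 18 arrays (12 residual degrees of freedom), with Benjamini-Hochberg adjustment over all named genes and a threshold of 0.05. Pair differences were formed per array and added to the same table. The code was tested on simulated data.

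Members and lists were chosen with earlier results of these data known. Named were the 4 largest called antisense RNAs, the 3 largest called partners and the 3 largest called pair differences per treatment, up to 12 pairs with both members called, and up to 4 members per interaction; the 3 most alike genes were named for 3 antisense RNAs. Values in every array were to be given for 14 pairs, and more are given. Replicate numbers did not pair arrays (r of deviations from -0.108 to 0.104, median 0.0197, over 45 same-numbered pairs). Alternatives were a fit of only the groups compared, a replicate block, renewed quantile normalization, a minimum mean level of 4, an intensity trend, the dimmest probe set, the array's own symbols, adjustment over all probe sets, and leaving out each array. The number of arrays limits the precision.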

Additional observations from a re-analysis of the deposited data

Results flagged for a closer look

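The effect of panobinostat differed by limma's interaction test between cells with and without decitabine for 7 members, given as the log2 change with decitabine minus the change alone. The antisense RNAs were AFAP1-AS1 (1.29, adjusted p = 0.00611), CLDN10-AS1 (1.66, 0.00158) and TMPO-AS1 (-1.32, 0.00933). The partners were CLDN10 (1.81, 0.0305), HECTD2 (1.03, 0.0269), LY86 (-1.17, 0.042) and ZNF32 (2.23, 0.0149). AFAP1-AS1, CLDN10-AS1, CLDN10 and HECTD2 lay near the low end of the scale in control cells and with panobinostat alone.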

How the results depend on the processing

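Of 120 named calls, 67 were never lost and 53 were lost under some alternative, 48 of them on leaving out 1 array. Calls lost numbered 15 with only the groups compared, 13 after renewed quantile normalization, 11 with adjustment over all probe sets, 7 on the dimmest probe set, 3 with an intensity trend and 5 with the replicate block. The array's own symbols changed none. SRRM2 with panobinostat reversed on the dimmest probe set, at 0.28 (adjusted p = 0.816), and the cause was not tested. With only the groups compared, 13 partners were called with valproic acid, against 23. At a mean level of at least 4, where fewer pairs were tested, pair differences numbered 26 with decitabine plus panobinostat, 18 with decitabine plus valproic acid, 6 with decitabine, 11 with panobinostat and 7 with valproic acid.

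Leaving out 1 array gave, in the same order of treatments, 30 to 34, 14 to 24, 4 to 8, 3 to 7 and 2 to 6 antisense RNAs, 56 to 59, 34 to 54, 7 to 9, 11 to 15 and 10 to 17 partners, and 45 to 50, 31 to 49, 10 to 11, 13 to 20 and 7 to 18 pair differences. Interactions numbered 3 to 7 for panobinostat and 0 to 1 for valproic acid. Replicate numbers share only a number: with the replicate block 37, 26, 9, 11 and 8 antisense RNAs and 70, 50, 9, 19 and 22 partners were called. Most antisense RNAs gave signals near the low end of the scale, and the part of this in the number of calls was not tested.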
